A study of Mus musculus with 53 samples.

Results

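The nuclear-encoded subunits of the respiratory complexes were described in the cortex of mouse embryos. Members were the protein-coding genes whose symbols in the GENCODE M21 annotation name a subunit of NADH dehydrogenase (Ndufa, Ndufb, Ndufc, Ndufs and Ndufv genes), succinate dehydrogenase (Sdha to Sdhd), the cytochrome bc1 complex (Uqcr genes and Cyc1), cytochrome c (Cycs and Cyct), cytochrome c oxidase (Cox4 to Cox8 genes) or ATP synthase (Atp5 genes). The rule named 88 genes, of which 87 had a value among the 20230 protein-coding genes and 37991 gene IDs of the deposited column. The missing entry was a second gene ID that also bears the symbol Atp5o. Of the 87 genes, 37 fell to complex I, 4 to complex II, 9 to complex III, 2 to cytochrome c, 18 to complex IV and 17 to complex V.

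The series holds RNA-seq of cultured neurons and astrocytes and of embryonic and adult brain, 53 libraries in 19 groups, made to study neuronal activity, plasticity and histone turnover. Only the cortex group is used here: untreated C57bl/6 embryos at E16.5, with 3 libraries of total RNA given as 1 authors' mean per gene. The labels do not say whether each library came from 1 embryo or from pooled tissue. No condition is compared with another, since the remaining 18 groups with their 50 libraries are not analysed here, and 1 column of means allows no test.

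Values are RPKM, in which the reads of a gene are divided by its length in kilobases and by the size of its library. The gene length behind them was the span from the first to the last base with introns included, so that a gene with long introns has a low RPKM for the same number of reads. Where the order of genes depends on this, levels are also given as RPM (the same before division by length) per kilobase of all exons or of the principal transcript, the spliced form that the annotation marks as the main one. The 3 libraries held 51309675, 64809251 and 71590977 reads, as recovered from the values, and are named here by size because their order in the labels cannot be told. Over all 3 together, 3 reads correspond to 0.0160 RPM. Whether reads in introns were counted is not known. If they were, levels per kilobase of exons or of principal transcript are too high for genes with long introns. All 10 markers of cortical tissue were at 1 RPKM or more, from Pax6, a factor of cortical progenitors, at 1.57 RPKM to Neurod6, a factor of excitatory neurons, at 194 RPKM. Red blood cell genes were also present, 4 of the 6 reaching 10 RPKM, and their summed level was 171 RPKM. The 3 endothelial markers summed to 18.0 RPKM, the 4 pericyte markers to 5.37 RPKM and the 4 microglial markers to 2.90 RPKM, with none of these 17 genes listed at 0. The part of these cells in the levels below was not tested, and in a bulk tissue fewer cells of a type and less RNA per cell cannot be told apart.

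Oxidative phosphorylation makes most of a neuron's ATP. Complex I takes electrons from NADH and complex II from succinate, and both pass them on to ubiquinone. Complex III hands them to cytochrome c, complex IV from there to oxygen, and the protons pumped on the way drive ATP synthase, complex V. A few core proteins of complexes I, III, IV and V are made from mitochondrial DNA and all others from nuclear genes, and some nuclear subunits exist as a ubiquitous and a tissue-specific isoform made from separate genes.

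Most of the subunit genes were among the higher-expressed genes of the cortex. At 1 RPKM or more stood 75 of the 87 members, against a background of 31.6% of all protein-coding genes. At 10 RPKM or more stood 26 members, against a background of 4.5%. On values per kilobase of all exons, 79 members reached 1, against a background of 54%. Listed at 0 were 3 members, all of them tissue-specific isoforms, against a background of 15.3%. The median member had 6.06 RPKM and the median protein-coding gene 0.213 RPKM. Per kilobase of principal transcript the medians were 50.9 and 2.30, and 59 of the 87 members were then in the upper 10% of protein-coding genes. The 87 genes took up 0.640% of the summed RPM of all annotated genes.

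The complexes overlapped widely in level, and their order depended on the length used. In RPKM the medians were 10.4 for complex III, 8.58 for complex V, 6.11 for complex IV, 4.38 for complex II and 3.57 for complex I. Per kilobase of principal transcript they were 103 for complex V, 71.2 for complex IV, 60.7 for complex III, 40.4 for complex II and 37.4 for complex I. Complexes II and I thus had the lowest medians on both scales, and complex III moved from the first to the third place. Complex IV holds 7 tissue-specific isoforms. Without them its median was 14.7 RPKM, and 102 per kilobase of principal transcript, next to the 103 of complex V. Single genes of complex I ranged from 0.424 to 22.4 RPKM and those of complex V from 0.265 to 89.4 RPKM, so that every complex median lay within the ranges of both.

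**Figure D1:**
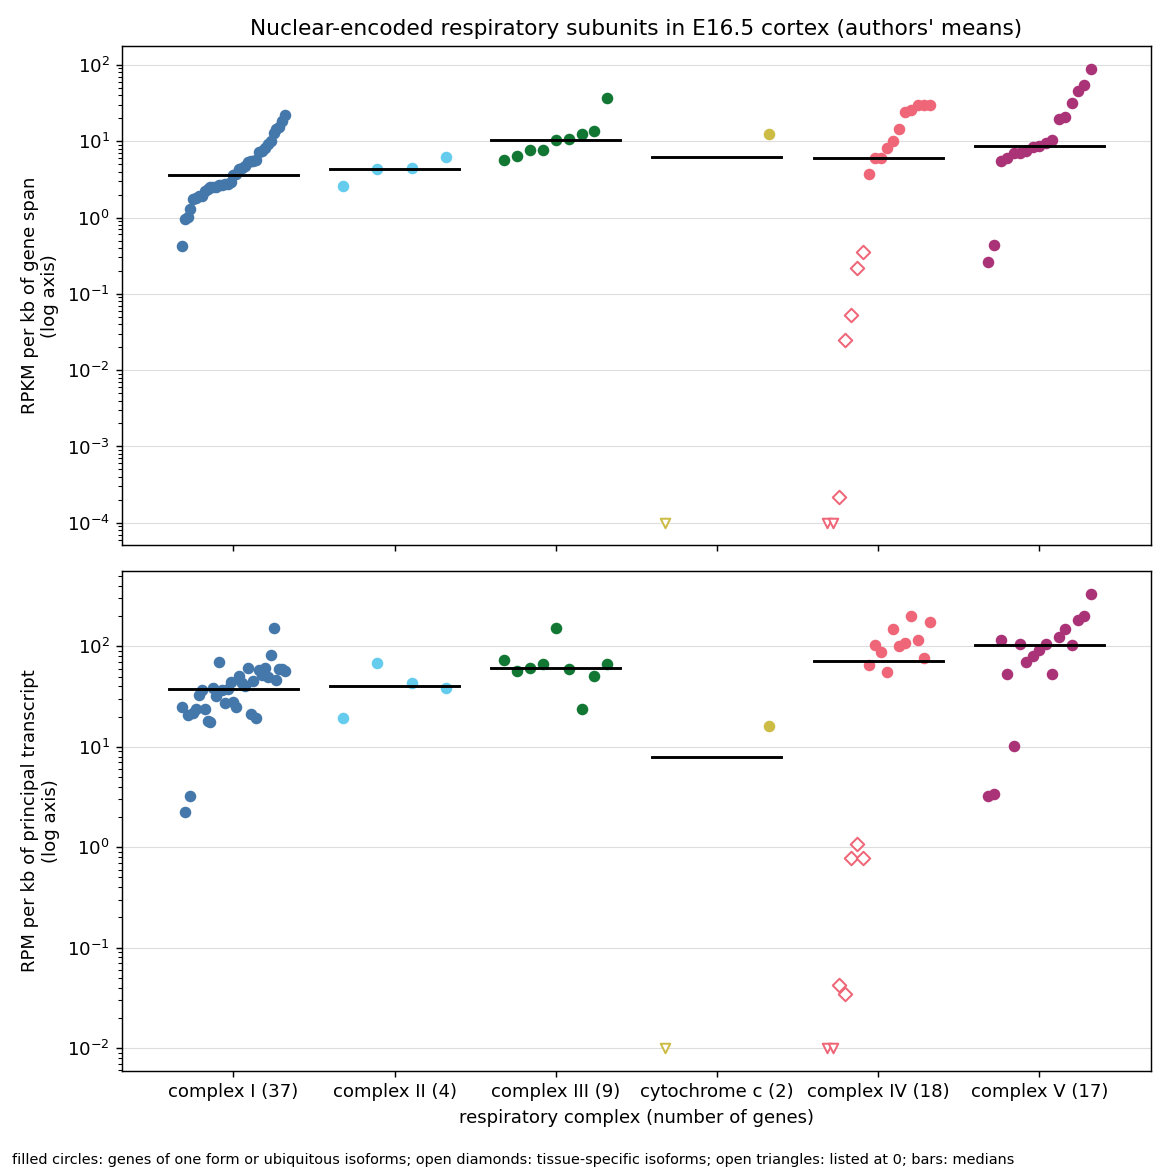
Level of each of the 87 subunit genes by complex on log axes, in RPKM per kilobase of gene span (top) and in RPM per kilobase of principal transcript (bottom). Points are genes in order of RPKM, black bars medians, open diamonds tissue-specific isoforms above 0 and open triangles the 3 genes listed at 0; the complex medians run from 3.57 to 10.4 RPKM and the open symbols lie below every filled point of complex IV.

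The gene length moved single members by many places. Atp5c1, the gamma subunit of the ATP synthase rotor, had 5.57 RPKM and rank 47 of 87, but 117 per kilobase of principal transcript and rank 11. Cox6c, a small subunit of complex IV, had 6.11 RPKM and 102 per kilobase of principal transcript. In the other direction, Cyc1, the cytochrome c1 of complex III, stood at rank 4 by RPKM at 36.7 and at rank 29 by principal transcript at 66.1. Cycs, the somatic cytochrome c, went from rank 20 at 12.6 RPKM to rank 74 at 16.0 per kilobase of its principal transcript of 3123 bases. Across the 87 members RPKM and gene span had a Spearman correlation of -0.38, and the level per kilobase of principal transcript and span one of -0.04. Both are descriptions over genes that share the same libraries.

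The 37 genes assigned to complex I by symbol were present throughout. They include Ndufa4 and Ndufa4l2, which are not counted as subunits of complex I. Without Ndufa4 and Ndufa4l2 the median of complex I stayed at 3.57 RPKM. At 1 RPKM or more stood 35 of the 37, and all 37 reached 1 per kilobase of exon. The matrix arm carries the flavin and iron-sulfur clusters. Its 8 NADH-module genes had a median of 2.51 RPKM and its 5 quinone-module genes one of 4.47 RPKM. The 24 genes listed in neither module, grouped here as membrane arm or junction, had a median of 4.02 RPKM. They include Ndufa4 and Ndufa4l2 and may hold genes of the matrix arm. This group is thus a remainder and not the membrane arm alone. In the same order the medians per kilobase of principal transcript were 31.2, 27.9 and 42.1, so that the matrix-arm modules changed places. The 7 conserved core subunits had a median of 4.47 RPKM against 2.82 for the 30 accessory ones, whereas per kilobase of exon the medians were 20.9 and 24.1, so that the direction turned with the length.

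Within the NADH module Ndufa2, an accessory subunit, was highest at 15.3 RPKM and Ndufs4, an accessory subunit whose loss causes Leigh syndrome, lowest at 0.424. Ndufa2 also led per kilobase of principal transcript, at 59.7, but Ndufv3 was lowest at 17.8. Ndufs4 had 0.388, 0.434 and 0.449 RPKM from the smallest to the largest library, close to each other. Its span of 100464 bases is 97.3% intron, and its 42.5 RPM gave 25.0 per kilobase of principal transcript, rank 63 of 87 instead of 78. Ndufv1, which binds NADH and the flavin, had 13.7, 14.6 and 15.1 RPKM, and its partner Ndufv2 had 2.72, 2.76 and 2.89. Their spans are 5423 and 22922 bases. The 2 genes stood at 46.2 and 37.4 per kilobase of principal transcript, and at 29.2 and 29.6 per kilobase of exon. Ndufs1, the largest iron-sulfur subunit, had 1.71, 1.73 and 1.80 RPKM. For Ndufs4, Ndufv1, Ndufv2 and Ndufs1 the smallest library was lowest and the largest highest. Ndufa12, an accessory subunit of the same module, had 0.947, 1.102 and 1.012 RPKM, with the middle library highest.

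Among the genes listed for the quinone module Ndufa5, an accessory subunit, was lowest in RPKM with 2.00, 2.28 and 2.33. By principal transcript Ndufs8 was lowest at 21.4 per kilobase, with Ndufa5 at 23.6. By exon length Ndufs7 was lowest at 16.0 per kilobase, with Ndufa5 at 20.0. Ndufs3, Ndufs7 and Ndufs8 of this module had means of 4.47, 3.57 and 5.496 RPKM. Among the genes grouped as membrane arm or junction Ndufb11, an X-linked accessory subunit, was highest in RPKM with 20.6, 22.3 and 24.3. Ndufb10 followed with 17.1, 18.1 and 19.3 RPKM. Both genes were ordered by library size. Ndufa4, whose product is now counted with complex IV, led this group per kilobase of principal transcript at 151. Ndufb9 came next at 82.8, and Ndufb11 stood at 56.5, rank 39 of all 87 members. Ndufb2 had 1.30, 1.25 and 1.34 RPKM, with the middle library lowest. It was the lowest gene of this group on both scales apart from Ndufa4l2, which is described with the isoforms. Its 3.20 per kilobase of principal transcript is uncertain, since the annotation gives that transcript 4371 bases. A gene without a value also overlaps Ndufb2 by 4022 bases on the same strand. In RPM Ndufb2 stood at 14.0, beside 15.7 for Ndufb6. Ndufab1, the acyl carrier protein of complex I that the symbol rule does not name, had 2.40 RPKM.

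Complex II, the only complex without a mitochondrially encoded subunit, was even in RPKM. Sdha, the flavoprotein that oxidises succinate, had 4.34, 4.52 and 4.42 RPKM in the smallest, middle and largest library. Sdhb, the iron-sulfur subunit, had 4.08, 4.44 and 4.47 RPKM. Sdhc, a membrane anchor, was lowest with 2.52, 2.68 and 2.69 RPKM, below every library value of Sdha and Sdhb. Sdhd, the other anchor, had a mean of 6.29 RPKM, and its library values could not be recovered. Per kilobase of principal transcript the order was Sdhb at 68.3, Sdha at 42.8, Sdhd at 38.1 and Sdhc at 19.4. Sdhc was lowest on both scales.

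All 9 genes of complex III were at 5 RPKM or more, from Uqcrc2 at 5.73 to Cyc1 at 36.7. The electron-carrying subunits Cyc1 and Uqcrfs1, the Rieske iron-sulfur protein, had 36.7 and 13.7 RPKM. The core proteins Uqcrc1 and Uqcrc2 had 7.73 and 5.73 RPKM, and the 5 small subunits between 6.35 for Uqcrb and 12.4 for Uqcrq. The order of core proteins and electron carriers turned per kilobase of principal transcript, with medians of 67.1 and 58.4. It did not turn per kilobase of exon, with medians of 39.5 and 48.6. Per kilobase of principal transcript Uqcrh, the hinge protein that docks cytochrome c1, was highest at 154, and 7 others lay between 50.6 and 73.5. Uqcrq was lowest on that scale at 23.8, although it was the third highest in RPKM.

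In complex IV the 11 genes that are not tissue-specific all stood above 3 RPKM. Cox6a1, Cox5b and Cox7c had 30.1, 30.0 and 30.0 RPKM, Cox4i1 had 25.4 and Cox8a had 24.2. Lowest among the 11 was Cox5a at 3.75 RPKM, and its partner around the core, Cox5b, was at 30.0. Per kilobase of principal transcript that pair stood at 64.9 and 77.4, with spans of 11153 bases for Cox5a and 2233 for Cox5b. With the RefSeq spans it stood at 87.86 and 65.96, so that the order of these genes is uncertain. Cox4i1 was the highest complex IV gene by principal transcript at 199, followed by Cox6a1 at 176 and Cox6b1 at 150. Cox7a2l, a factor that links complexes III and IV and no fixed subunit of complex IV, had 6.11 RPKM and 87.6 per kilobase of principal transcript. The annotation places Cox4i1 wholly inside Gm20388 on the same strand, a gene listed at 0.

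Complex V held the 3 highest members. The catalytic beta subunit Atp5b had 84.8, 90.1 and 93.4 RPKM, and the alpha subunit Atp5a1 had 51.8, 54.3 and 55.7. Library values of the 2 genes did not overlap. Both also led per kilobase of principal transcript, at 332 and 199.6, where Cox4i1 came next at 198.9. The order of the 2 genes turned per kilobase of exon, with Atp5b at 150 and Atp5a1 at 157. Together they took 20.9% of the RPM of all 87 members and 52.4% of the RPM of complex V. The other F1 genes were lower. Atp5e, the epsilon subunit, had 18.0, 20.8 and 23.7 RPKM, Atp5d, the delta subunit, 9.60, 10.5 and 10.9, and Atp5c1 5.55, 5.59 and 5.57. In the assembled enzyme alpha and beta occur in several copies and gamma, delta and epsilon once.

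Of the peripheral stalk, which holds the F1 head still, Atp5h had 18.4, 20.0 and 20.9 RPKM, and Atp5f1 and Atp5j had means of 8.58 and 8.45. Atp5o, the subunit that joins stalk and head, was listed at 0.439 RPKM and at 3.39 per kilobase of principal transcript. Its symbol is carried by 2 gene IDs that overlap by 1769 bases on the same strand, and 39.4% of its transcript lies in words of 50 bases shared with an overlapping gene, so that this low value is uncertain. The membrane genes Atp5k, Atp5mpl, Atp5l and Atp5j2 had 31.7, 7.56, 7.07 and 6.06 RPKM. Atp5s, a factor related to ATP synthase that is not a subunit of the enzyme, had 0.244, 0.272 and 0.279 RPKM.

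The c subunit forms the membrane ring that turns with proton flow, and 3 genes encode it. Their precursors differ in the targeting peptide at the start, which is removed on import. The last 228 coding bases of each, 76 codons with the stop, are shown because they encode the same product in all 3 genes and yet differ in sequence. They were read from GRCm38 with the annotation's coding exons on the coding strand, and capitals mark the 58 positions at which the genes differ.
Atp5g1, chromosome 11: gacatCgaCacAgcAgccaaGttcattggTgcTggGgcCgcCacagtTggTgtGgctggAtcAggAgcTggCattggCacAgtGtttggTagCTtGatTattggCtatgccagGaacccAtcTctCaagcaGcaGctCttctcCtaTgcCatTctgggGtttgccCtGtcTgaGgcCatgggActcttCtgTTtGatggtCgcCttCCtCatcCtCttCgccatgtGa
Atp5g2, chromosome 15: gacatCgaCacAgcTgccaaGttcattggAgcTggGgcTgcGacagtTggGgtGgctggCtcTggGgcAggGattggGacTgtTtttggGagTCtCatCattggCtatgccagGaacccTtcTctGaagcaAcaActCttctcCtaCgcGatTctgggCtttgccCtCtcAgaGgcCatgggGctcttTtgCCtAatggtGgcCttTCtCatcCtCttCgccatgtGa
Atp5g3, chromosome 2: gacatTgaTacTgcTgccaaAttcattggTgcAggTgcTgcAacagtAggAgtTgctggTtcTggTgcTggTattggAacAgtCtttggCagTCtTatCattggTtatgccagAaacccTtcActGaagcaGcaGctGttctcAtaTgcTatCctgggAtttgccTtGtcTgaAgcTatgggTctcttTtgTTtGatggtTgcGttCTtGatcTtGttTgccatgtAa
All 76 codons gave the same product in each pair of genes. The bases were the same at 85.1% of positions in Atp5g1 and Atp5g2, 79.8% in Atp5g1 and Atp5g3 and 78.5% in Atp5g2 and Atp5g3. Of the 58 differing positions, 52 were at codon position 3. No word of 50 bases was shared between any pair within this stretch, so that a read of that length that matches it exactly fits only 1 of the 3 genes. Atp5g2 shared 87.4% of its transcript with 2 pseudogenes in such words, and its value is less certain for that reason.

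Atp5g3 was the highest of the 3 c-subunit genes with 42.5, 45.6 and 49.0 RPKM. Atp5g2 had 8.85, 9.47 and 9.95 RPKM, and Atp5g1 had 6.74, 7.21 and 7.13. The library values of the 3 genes did not overlap. In RPKM the ratio of Atp5g3 to Atp5g2 was 4.85, with a 95% counting interval of 4.75 to 4.95, but per kilobase of exon it was 1.31. The ratio of Atp5g3 to Atp5g1 was 6.50 in RPKM and 6.18 per kilobase of exon. The ratio of Atp5g2 to Atp5g1 was 1.34 in RPKM and 4.72 per kilobase of exon. The order of the genes thus held on both scales while the distances did not. The exons of Atp5g1 add up to 4912 bases in GENCODE, more than its span of 2902 in RefSeq, so its value per kilobase of exon is uncertain. In RPM Atp5g3 was 2.75 times and Atp5g2 1.61 times as high as Atp5g1. Counting intervals here and below are exact for Poisson counts of the reads summed over the libraries, and cover counting error only.

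Ubiquitous isoforms were far above tissue-specific ones in each of the 5 pairs with both genes above 0, and the tissue-specific gene of the other 3 pairs was listed at 0. The 7 ubiquitous genes ran from 8.23 to 30.1 RPKM with a median of 14.7, and the 8 tissue-specific genes from 0 to 0.355 RPKM with a median of 0.0124. None of the 8 reached 1 RPKM, and the ranges did not overlap. On the log2(RPKM + 0.1) scale the medians differed by 7.05, a scale that understates differences of low genes. Genes for which tissue-specific forms are known from heart and skeletal muscle, testis and lung are taken in turn.

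Cox6a2, Cox7a1 and Cox8b are the forms of heart and skeletal muscle. Cox6a1 had 27.8, 30.2 and 32.3 RPKM, and Cox6a2 0.0245 RPKM, worth about 4 reads in all 3 libraries. The ratio was 1228, with a counting interval of 461 to 3314, and 4173 per kilobase of exon. The reads of Cox6a2 were not recovered with any length tried. Its read number, this interval and the ratio per kilobase of exon are therefore uncertain. Cox7a2 had 14.7 RPKM and Cox7a1 0.218, a ratio of 67.5 with an interval of 54.1 to 85.3, and 89.4 per kilobase of exon. The last value is uncertain, since the reads of Cox7a2 were not recovered and its span is 4518 bases in GENCODE and 16182 in RefSeq, which would give a ratio of 320. The reads of Cox7a1 were not recovered, so the interval is uncertain too. Cox8a had 21.3, 25.3 and 26.1 RPKM, and Cox8b was listed at 0. An exact 0 in this column may also come from how reads were assigned, since Sco2, a copper chaperone that complex IV needs in every cell, was listed at 0 too, so no ratio is given for a gene listed at 0. The 10 markers of heart and skeletal muscle had a median of 0.00483 RPKM, and none reached 1. The annotation places Cox6a2 wholly inside Itgad on the opposite strand, a gene at 0.000222 RPKM.

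Cox6b2, Cox7b2, Cox8c and Cyct are forms of the testis. Cox6b1 had 9.16, 10.6 and 10.6 RPKM and Cox6b2 0.360, 0.285 and 0.419, a ratio of means of 28.5 with an interval of 23.0 to 35.4, and 315 per kilobase of exon. Cox6b2 was the highest tissue-specific isoform in RPKM, and its middle library was lowest. Cox7b had 7.25, 8.62 and 8.82 RPKM, and Cox7b2 0.000216, the value of 2, 1 and 1 reads in a gene of 105382 bases. The ratio of Cox7b to Cox7b2 was 38046 in RPKM, with an interval of 13945 to 100281, and 1088 per kilobase of exon. Without the smallest library, which held 2 of these 4 reads, the ratio in RPKM was 62514. Cox8c was listed at 0. Cycs had 12.0, 12.6 and 13.1 RPKM, and Cyct was listed at 0. Of the 8 testis germ cell markers 3 were listed at 0, Tnp1, Tnp2 and Pgk2, and none reached 1 RPKM.

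Cox4i2 is the form of lung and of some vascular cells, and its subunit responds to oxygen. Its libraries had 0.0431, 0.0568 and 0.0566 RPKM, with the smallest library lowest. Cox4i1 at 25.4 RPKM was 487 times as high, with an interval of 404 to 598, and 137 times per kilobase of exon. Of the 3 lung markers Scgb1a1 was listed at 0, and the others, Sftpc and Sftpb, were below 0.005 RPKM. Ndufa4 and Ndufa4l2 are a further pair. The product of Ndufa4 was first assigned to complex I and is now counted with complex IV, and Ndufa4l2 is a hypoxia-induced relative. Ndufa4 had 12.8 RPKM and Ndufa4l2 0.952, a ratio of 13.5 with an interval of 12.21 to 14.96, the smallest ratio among the 6 pairs outside the c-subunit genes that have one. Per kilobase of exon that ratio was 35.2, and 9.76 with the RefSeq span of Ndufa4l2, 7881 bases against 2188 in GENCODE, since its reads were not recovered with either. The reads of Ndufa4 were not recovered, so the interval is uncertain too.

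**Figure D2:**
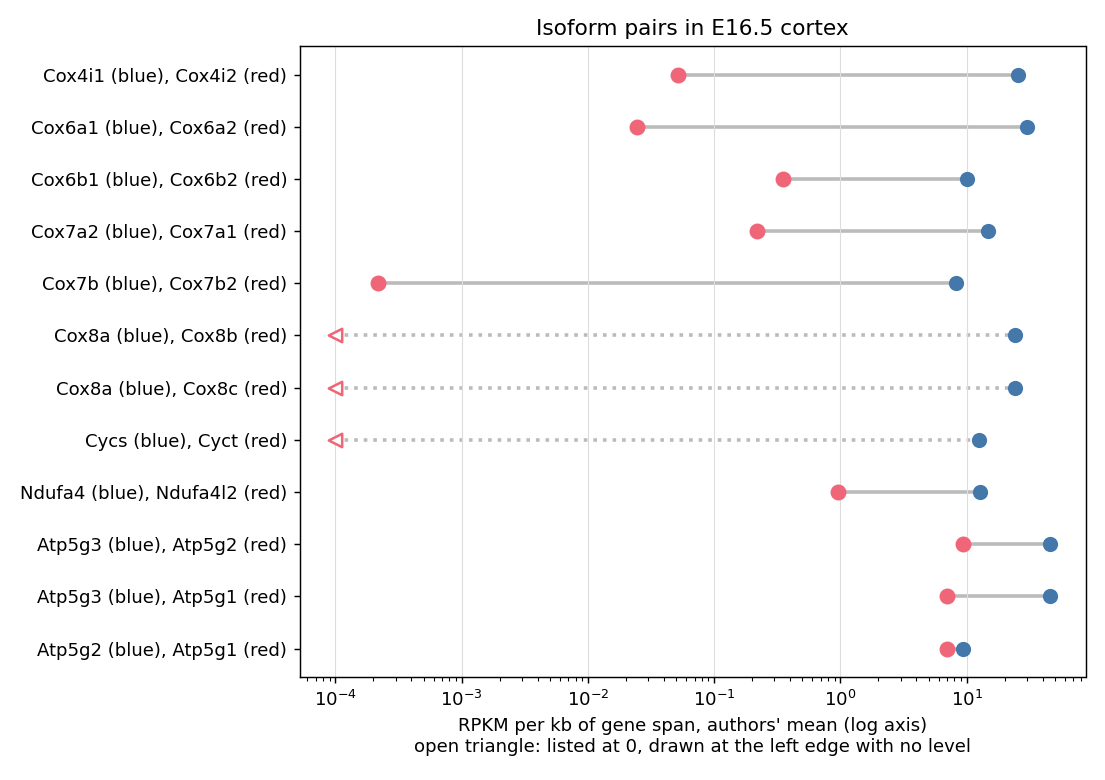
Authors' mean RPKM of both genes of 12 isoform pairs on a log axis, with the first-named gene in blue and the second in red. Open triangles with dotted lines mark genes listed at 0, drawn at the left edge with no level; pairs with a tissue-specific gene above 0 span 28.5-fold or more, and the c-subunit pairs at the bottom between 1.34-fold and 6.50-fold.

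Promoters of some isoform genes are shown because the pairs differ so far in level while encoding versions of the same subunit. Each is the stretch of 250 bases before the start of the gene in RefSeq's annotation of GRCm38.p6, 5′ to 3′ on the gene's strand. Capitals mark matches, on either strand, to 6 short motifs: the NRF1 core motif GCATGCGC, the ETS motif CCGGAAG, the YY1 motif AAGATGGCG, the estrogen-related receptor (ERR) motif TGACCTTG, the Sp1 motif GGGCGG and the TATA box TATAAA. NRF1, the ETS factor GABP, YY1 and ERR alpha are known regulators of nuclear genes for mitochondrial proteins.
Cox6a1, chr5:115348959-115349208, minus strand: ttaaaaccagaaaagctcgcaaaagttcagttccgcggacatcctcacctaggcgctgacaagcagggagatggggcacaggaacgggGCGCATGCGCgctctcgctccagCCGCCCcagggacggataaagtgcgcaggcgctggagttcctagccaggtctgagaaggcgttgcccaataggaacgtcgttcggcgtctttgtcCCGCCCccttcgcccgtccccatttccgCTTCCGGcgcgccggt
Cycs, chr6:50566570-50566819, minus strand: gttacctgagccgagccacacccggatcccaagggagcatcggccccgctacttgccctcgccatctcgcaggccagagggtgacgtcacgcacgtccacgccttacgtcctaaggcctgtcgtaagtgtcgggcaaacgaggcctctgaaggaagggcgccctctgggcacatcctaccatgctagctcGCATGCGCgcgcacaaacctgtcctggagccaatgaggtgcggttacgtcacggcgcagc
Cyct, chr2:76360454-76360703, minus strand: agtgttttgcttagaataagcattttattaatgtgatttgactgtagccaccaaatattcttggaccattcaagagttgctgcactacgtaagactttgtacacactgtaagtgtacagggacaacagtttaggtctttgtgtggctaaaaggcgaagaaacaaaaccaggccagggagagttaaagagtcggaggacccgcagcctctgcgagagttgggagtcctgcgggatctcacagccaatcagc
Cox7a2, chr9:79759854-79760103, minus strand: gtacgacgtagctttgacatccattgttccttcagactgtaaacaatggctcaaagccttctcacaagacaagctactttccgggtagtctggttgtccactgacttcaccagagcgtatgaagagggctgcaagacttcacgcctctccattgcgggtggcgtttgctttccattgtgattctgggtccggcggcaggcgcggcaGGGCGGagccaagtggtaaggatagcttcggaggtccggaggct
Cox7a1, chr7:30183921-30184170, plus strand: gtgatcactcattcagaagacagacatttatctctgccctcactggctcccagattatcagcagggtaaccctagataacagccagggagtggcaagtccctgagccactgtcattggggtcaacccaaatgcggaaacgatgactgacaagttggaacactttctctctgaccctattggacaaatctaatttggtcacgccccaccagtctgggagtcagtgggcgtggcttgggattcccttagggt
The Cox6a1 stretch holds the NRF1 core motif on both strands in 1 overlapping run, 1 ETS match and 2 Sp1 matches. That of Cycs holds 1 NRF1 core motif, and that of Cox7a2 1 Sp1 match. Those of Cyct and Cox7a1 hold no match to any of the 6 motifs. Other isoform genes differ from this set: of ubiquitous ones Cox7b and Cox8a hold no match either, and of tissue-specific ones Cox6b2 holds an Sp1 match and Cox7b2 an Sp1 and a TATA match. CpG dinucleotides numbered 26 in the Cox6a1 stretch, 23 in Cycs, 14 in Cox7a2, 6 in Cyct and 4 in Cox7a1, and in genes not shown 5 in Cox7b and 9 in Cox7b2, so that the numbers in the isoform groups overlap.

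Over all members with an entry, 68 genes with 73 promoters, the NRF1 core motif was in 9 (12.3%), against 3.05% of 20150 promoters of protein-coding genes. The ETS motif was in 12 (16.4%) against 9.28%, and the ERR motif in 3 (4.11%) against 1.12%. The YY1 motif was in 1 (1.37%) against 0.749%. Sp1 was in 23 (31.5%) against 44.1%, and TATA in 7 (9.59%) against 11.2%. Sp1 and TATA matches were thus no more frequent than in other genes. Member promoters had a median of 14 CpG dinucleotides and 56% GC, against 10 and 56% in those of protein-coding genes. The part of this CpG difference in the motif shares was not tested. Of the 6 ubiquitous isoform promoters 2 held the NRF1 motif, 2 the ETS motif and 2 Sp1, and none the ERR, YY1 or TATA motif. Of the 5 tissue-specific ones 2 held Sp1, 1 held TATA and none the others, which is too few promoters to set against the background shares. Their median GC content was 50.4% with 6 CpG dinucleotides, against 54.4% and 14 in the 6 ubiquitous promoters. A match describes the letters in this window and is no evidence of binding, and no match says only that these letters are not there. Among the regulators Gabpa was at 1.71, Yy1 at 2.34 and Esrra at 2.12 RPKM, and Nrf1 at 0.365. The order turned per kilobase of principal transcript, with Nrf1 at 20.5, Yy1 at 10.3, Esrra at 10.2 and Gabpa at 9.89. Per kilobase of all exons Nrf1 was again the lowest of these genes at 3.75, below Esrra at 5.23, Gabpa at 8.67 and Yy1 at 9.89. Of the 13 regulators 6 reached 1 RPKM. Tfam, which packages and transcribes mitochondrial DNA, was highest in RPKM at 3.19, and Nrf1 was highest per kilobase of principal transcript. The coactivator Ppargc1b was lowest on both scales, at 0.00550 RPKM.

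The mitochondrially encoded subunits had higher medians than the nuclear ones in each of the 4 complexes that hold them. Their median was 484 RPKM for the 7 genes of complex I, against a nuclear median of 37.4 per kilobase of principal transcript. For complex III mt-Cytb had 2533 against 60.7, and for complex IV the 3 genes had a median of 3556 against 71.2. Without tissue-specific isoforms the nuclear median of complex IV was 102. In complex V mt-Atp6 at 401 and mt-Atp8 at 99.3 stood against a nuclear median of 103. This complex thus had the smallest ratio of medians, 2.43. That ratio rests on only these 2 mitochondrial genes, and how reads were assigned to them is not known. Mitochondrial genes have no introns, so their RPKM is per kilobase of transcript. mt-Nd4l, at 0.0348 RPKM, was the only one of the 13 below 1 RPKM. That value is worth 1.93 reads over the 3 libraries, beside 1179 RPKM for mt-Nd4, and is uncertain because the handling of reads is not known. The 13 genes took 2.18% of the summed RPM and the 87 nuclear members 0.640%.

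**Figure D3:**
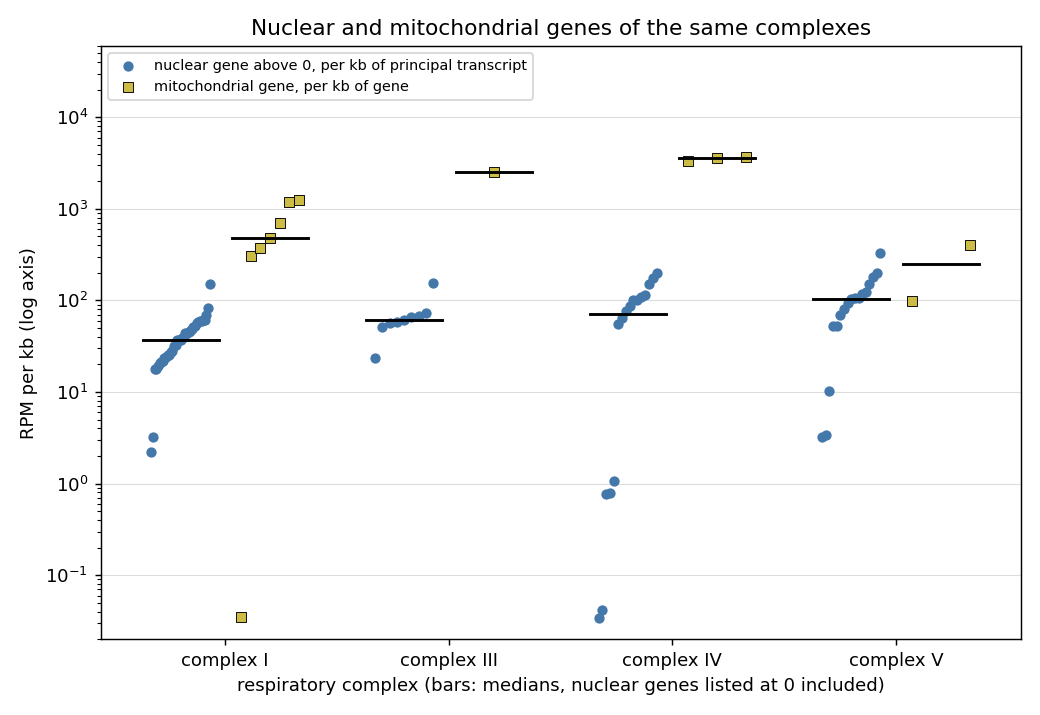
Level per kilobase of transcript on a log axis of nuclear genes above 0 (blue circles, per kilobase of principal transcript) and mitochondrial genes (yellow squares) of complexes I, III, IV and V, with black bars at the medians. The mitochondrial median lies above the nuclear one in all 4 complexes, with a ratio of 2.43 in complex V and 49.97 in complex IV. The nuclear median of complex IV includes its tissue-specific isoforms.

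Genes for assembly factors, which build the complexes without staying in them, were lower than the subunits. Of 45 such genes 26 were at 1 RPKM or more, and their median was 1.35 RPKM and 8.95 per kilobase of principal transcript, against 6.06 and 50.9 for the subunits. By complex the medians were 1.61 RPKM for the 14 factors of complex I, 1.09 for the 4 of complex II, 1.51 for the 6 of complex III, 1.29 for the 18 of complex IV and 0.987 for the 3 of complex V. Highest in RPKM were Coa3 at 24.8, an assembly factor of complex IV, Ndufaf3 at 10.8, of complex I, and Uqcc3 at 9.47, of complex III. Uqcc2, of complex III, led per kilobase of principal transcript at 51.1, followed by Coa3 at 32.1 and Cox14 at 31.1, while Ndufaf3 and Uqcc3 had 13.7 and 10.5. Sco2, which delivers copper to complex IV, was the only one listed at 0.

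The libraries differed from each other in a regular way. Of the members between 10 and 200 RPM, 57 had library values that could be recovered, and 55 of these were lowest in the smallest library. Among all 4677 protein-coding genes recovered in the same range, 54.1% were lowest there. The highest library was a median of 1.15 times the lowest for the members, from 1.01 for Atp5c1 to 1.32 for Atp5e, and 1.07 times for all these genes. In 49 of the 57 members the values were ordered by library size. Each of these ratios was far below the ratio of any pair of a ubiquitous and a tissue-specific isoform above 0.

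The ratio of the largest to the smallest library was higher for genes with short transcripts. For members whose principal transcript was under 1 kb the median ratio was 1.17 (34 genes), for 1 to 2 kb 1.103 (16 genes), for 2 to 4 kb 1.06 (5 genes) and over 4 kb 1.04 (2 genes). For all recovered protein-coding genes, members included, it was 1.14, 1.06, 1.03 and 1.01 in the same classes. In each class the members' median was above that of all genes. Across the 57 members transcript length and this ratio had a Spearman correlation of -0.73, given as a description since the genes share the same libraries. RNA quality and library preparation were not recorded in the labels, and their part in this pattern was not tested.

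**Figure D4:**
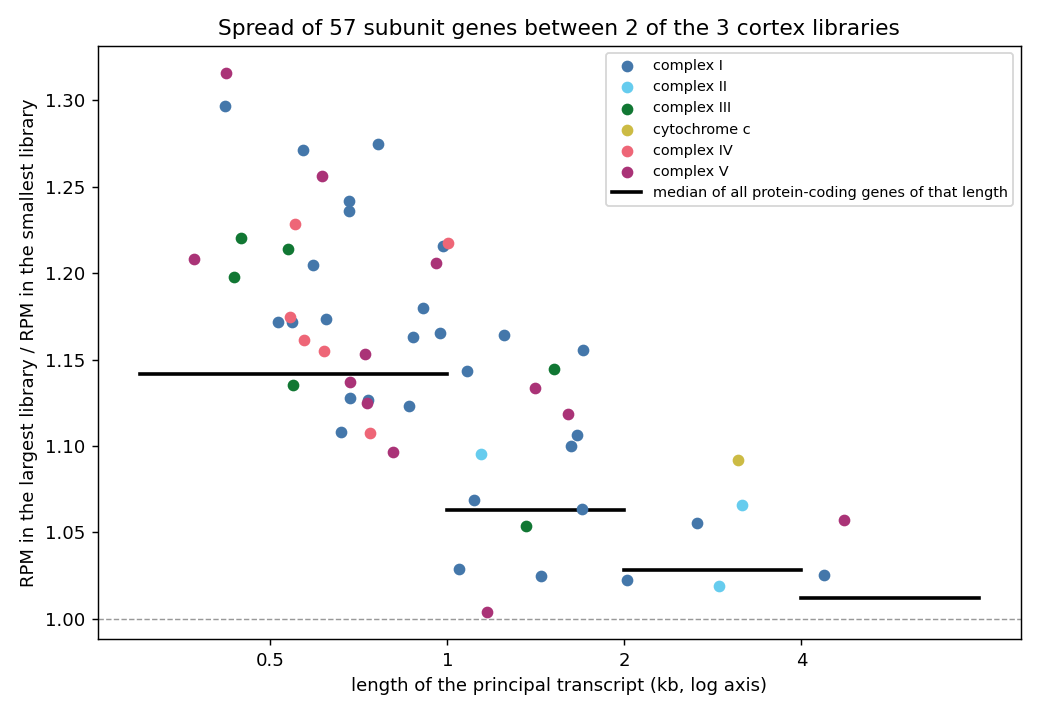
RPM in the largest library divided by RPM in the smallest, for 57 members, against the length of the principal transcript on a log axis, with colours for the complexes. Black lines are medians of all recovered protein-coding genes in 4 length classes, 1.14 for transcripts under 1 kb and 1.01 over 4 kb; every member lies above the dashed line at 1.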

How the data were processed

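Per the labels' protocols, Trizol and RNeasy Micro columns were used for the RNA and Illumina's TruSeq protocol for the libraries. The submitters' processing notes name, with no role, HTSeq 0.6.0, DESeq 1.16.0, Cuffdiff 2.0.2, TopHat2 2.0.9, Bowtie2 2.1.0 and the build mm9 (NCBIM37). The sources used here give neither the strand setting nor the handling of reads with several matches or in introns. The authors deposited 1 column of RPKM, a mean of the 3 cortex libraries grouped by the labels' source name. It has no SD, n or test.

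Gene names, lengths and coding sequences came from GENCODE M21 (GRCm38), a later build than the authors' own, and promoters from RefSeq (GRCm38.p6), with entries for 68 members. Low values of multi-exon genes multiplied by end minus start lay within 0.5% of what 1 read is worth in 1 library for 662 of 761 values (87.0%), against 35 of 1010 (3.47%) with exon length. From the 15 digits of each mean, whole reads per library were solved for 63 of the 84 members above 0, 47 with the M21 gene length and 16 with other transcript ends or the RefSeq length. The solving was tested on simulated data. On the real values it gave reads for 4677 of 8582 protein-coding genes between 10 and 200 RPM (54.5%), and for 45 (0.524%) with 2 bases added to the length. RPM of genes not recovered used the M21 length. No filter on low values was used, and the pseudocount was 0.1. Python 3.11.15, numpy 2.4.6, pandas 2.3.3, scipy 1.17.1 and matplotlib 3.10.9 were used. Members, lists, modules and pairs were chosen with earlier results of these data known. The rule for named genes let every member be named, with values in full for the 10 highest and 5 lowest, all isoform genes, complex II and the ends of each module, and of other lists the highest and lowest. A gene that this rule names is not reported here. Gm20388 and Itgad were named after their values were seen. Of the alternatives, values per kilobase of principal transcript, the recovery of reads per library, the libraries left out and RefSeq spans for members not recovered were chosen after seeing the data. Members overlap another listed gene on the same strand in 8 cases and on the opposite strand in 25, and 36 share at least 1 word of 50 bases with another gene, 33 of them with a pseudogene, so their values are less certain.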

Additional observations from a re-analysis of the deposited data

How the results depend on the processing

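No paired analysis was possible because the deposited column holds only a mean and the recovered libraries carry no replicate number. Libraries were left out, chosen after seeing the data, for members whose reads were recovered. Their median RPKM then ran from 2.83 to 3.002 for complex I (29 genes), 4.26 to 4.46 for II (3), 10.2 to 11.1 for III (6), 7.93 to 8.72 for IV (9) and 9.16 to 9.71 for V (15). The ratio of Cox6b1 to Cox6b2 ran from 25.4 to 30.6, and of Cox7b to Cox7b2 from 30724 to 62514. The medians of complexes I, II, III, IV and V were 23.8, 32.4, 46.5, 31.7 and 36.4 per kilobase of exon, with 7.33 for cytochrome c. In RPM they were 31.5, 69.8, 69.0, 57.5 and 65.6, with 24.9 for cytochrome c, so that complex II came first. Per kilobase of principal transcript they were 37.4, 40.4, 60.7, 71.2 and 103, with 7.99 for cytochrome c. As means of RPKM complexes I, III, IV and V had 5.54, 12.4, 10.5 and 19.5. Without the highest member the medians of complexes I and III were 3.24 and 9.09 RPKM and cytochrome c was at 0. Over members above 0, complex IV had 7.17 and cytochrome c 12.6 RPKM, and without tissue-specific isoforms 14.7 and 12.6. Without Atp5s complex V had 9.0 RPKM. The log2 difference between ubiquitous and tissue-specific medians, 7.05, was 9.44 per kilobase of exon, 9.08 in RPM, 9.61 per kilobase of principal transcript, 6.60 over genes above 0, and 3.95 and 9.61 with pseudocounts of 1 and 0.01. No pair turned its direction in 60 alternatives of 12 pairs. Members past the detection threshold numbered 50 at 5 RPKM and 76 at 0.5 RPKM. Depth limits the low isoforms: Cox6a2 and Cox7b2 rest on about 4 reads, a number that for Cox6a2 was estimated and not recovered.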
